A study of Mus musculus with 18 samples.

Results

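The 6 genes described here encode enzymes and a transporter by which macrophages use arginine and make itaconate: Nos2, Gch1, Slc7a2, Ass1, Odc1 and Acod1. Their rows were found by gene symbol in the deposited table of read counts, 6 of 50600 gene rows, and all 6 passed the filter on low counts that left 15663 genes tested. The data are RNA-seq of bone marrow-derived macrophages (BMDMs), cells grown from mouse bone marrow with the growth factor GM-CSF for 8 days. Bone marrow came from wild type (WT) mice and from mice without the transcription factor IRF5 (IRF5-/-, libraries labelled IRF5 KO), and the labels give neither the age nor the sex of the mice, nor the number of mice behind a library. Each genotype has 3 groups of 3 libraries, 18 in all. The groups are unstimulated cells without LPS, cells given the vehicle DMSO for 1 h and then 100 ng/ml lipopolysaccharide (LPS) for 2 h (LPS DMSO), and cells given 3.5 μM defactinib, an inhibitor of the kinases FAK and PYK2, for 1 h before the same LPS (LPS defactinib). The labels of the unstimulated libraries name DMSO, whereas the headers of their count columns mark them as untreated, so that vehicle and no treatment cannot be told apart there. Since nothing in the labels says that libraries came from separate mice, p-values measure the spread between these libraries, which may be technical. The spread of each gene was estimated from all 6 groups together. A standard error thus does not show the spread of the groups compared alone.

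Nitric oxide synthase 2, encoded by Nos2, turns arginine into citrulline and nitric oxide, a toxic radical that inflammatory macrophages release against microbes. It needs the cofactor tetrahydrobiopterin, whose synthesis starts with GTP cyclohydrolase 1 (Gch1), arginine brought into the cell by the cationic amino acid transporter CAT2 (Slc7a2), and argininosuccinate synthase (Ass1), which helps to rebuild arginine from citrulline. Ornithine decarboxylase (Odc1) turns ornithine, which is also formed from arginine, into putrescine, the first of the polyamines that growing cells need. Aconitate decarboxylase 1 (Acod1, also known as Irg1) makes itaconate from a citric acid cycle intermediate in macrophages exposed to LPS.

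Libraries held 39282181 to 61949143 counted read pairs. The level of each gene is given in CPM, its count relative to the library total after scaling by TMM, which does not correct for gene length, so that levels of different genes are compared only per kilobase of exon (FPKM). A gene is called changed at an adjusted p below 0.05 together with a change beyond 2-fold. Shares of all tested genes called come from the fit of all 18 libraries. No share is given for an unadjusted p below 0.05, for fits that leave out libraries or for libraries that do not overlap. Irf5 itself was at 587 to 650.3 CPM in the WT and 335 to 396 CPM in the IRF5 KO unstimulated libraries, at 434 to 475 and 345 to 435 CPM in LPS DMSO, and at 213 to 379 and 353 to 391.9 CPM in LPS defactinib. The counts cover all annotated exons and the sources used here do not say which part of Irf5 the allele lacks, so its level does not check the genotype labels, and the genotype comparisons hold for the libraries as labelled. The 3 libraries of IRF5 KO LPS DMSO did not resemble each other. Replicates 1 and 2 differed by a chi-square of 2.33 per gene, the least of any pair of replicates in the series, and differed from replicate 3 by 441 and 425. The log2 CPM of replicates 1 and 2 correlated across genes at 0.989 with the mean of IRF5 KO LPS defactinib and at 0.927 with that of IRF5 KO unstimulated, whereas replicate 3 correlated at 0.945 and 0.981 (genes are not independent replicates). Against the IRF5 KO unstimulated mean, Nos2 was at 0.512, 1.34 and 73.96 times in replicates 1, 2 and 3. Acod1 was at 1.17, 1.19 and 5.81 times. Whether the treatment labels of these 3 libraries are right was not tested and could not be checked from the labels. Counts of calls that use this group are given with and without these libraries. The 6 macrophage markers examined (Adgre1, Csf1r, Cd68, Lyz2, Itgam, Mertk) were detected in every group. Their summed level was 9304 to 18730 CPM over all libraries and is given by genotype below.

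The start regions of Acod1 and Gch1, which were both higher in WT LPS DMSO than in every other group, are shown because they are the places where transcription of those genes begins. RefSeq promoter sequences of the GRCm38.p6 build, 250 bases before to 50 bases after the annotated start, were matched by symbol for 4 of the 6 genes (Acod1, Ass1, Odc1 and Gch1), and not for Nos2 and Slc7a2. Capitals mark matches to the motifs searched, on either strand. The Acod1 region lies on the + strand at chr14:103046762-103047061, and the Gch1 region on the - strand at chr14:47189364-47189663.
Acod1: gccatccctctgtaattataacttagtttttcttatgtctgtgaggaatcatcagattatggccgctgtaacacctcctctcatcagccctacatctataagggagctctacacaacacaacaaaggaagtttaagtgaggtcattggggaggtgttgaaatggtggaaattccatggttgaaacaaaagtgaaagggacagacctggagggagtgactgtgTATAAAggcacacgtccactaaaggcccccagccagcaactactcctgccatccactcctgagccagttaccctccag
Gch1: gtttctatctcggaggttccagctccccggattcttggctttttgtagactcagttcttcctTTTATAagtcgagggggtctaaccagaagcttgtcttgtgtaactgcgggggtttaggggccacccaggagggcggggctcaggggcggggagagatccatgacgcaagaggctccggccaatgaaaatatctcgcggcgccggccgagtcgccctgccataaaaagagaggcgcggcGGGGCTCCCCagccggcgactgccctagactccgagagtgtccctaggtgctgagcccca
In Acod1 the match was to the TATA box (TATAAA), from 28 to 23 bases before the start, where -28 and -23 are its first and last positions. In Gch1 a match to the kappaB motif, which reads as a match on both strands, ran from position -10 to -1, and the letters of the TATA box lay on the opposite strand from -188 to -183. Among 32817 promoters of this length, 8.46% held the kappaB motif and 13.6% the TATA box. The Ass1 region (+ strand, chr2:31470020-31470319) held 1 E-box (CACGTG, from -36 to -31, in 7.15% of promoters), and the Odc1 region (+ strand, chr12:17544623-17544922) held none of the motifs searched. Those also included the interferon regulatory factor motif GAAANNGAA (8.55% of promoters), the STAT motif TTCNNNGAA (8.29%) and the cyclic AMP response motif TGACGT (7.51%), which matched in none of the 4 regions. A match is a description of the letters and not a measured binding site.

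The first question was how LPS changed these genes in WT cells. In WT macrophages 4 of the 6 genes were called higher after LPS, Nos2, Acod1, Slc7a2 and Gch1, and none was called lower, against 21.3% of all tested genes called in this comparison. The median log2 fold change of the 6 genes was 1.92, and that of all tested genes was -0.005. The 4 calls stood in each of the 18 fits that left out 1 library. Beside these genes, the summed level of 4 dendritic cell markers was 101 to 109 CPM in WT unstimulated, 365 to 476.5 CPM in WT LPS DMSO and 36.6 to 76.4 CPM in WT LPS defactinib, and that of 5 neutrophil markers was 51.8 to 71.4, 111 to 214 and 110 to 146 CPM. The dendritic cell markers did not move together: from unstimulated to LPS DMSO and LPS defactinib the means of Ccr7 were 36, 311 and 23.2 CPM, those of Zbtb46 60.4, 91.3 and 25.2, those of Flt3 0.519, 2.11 and 2.16 and those of Cd209a 6.63, 5.85 and 2.87. No marker of either list was at 0 in these groups, and the part of such cells in the results was not tested.

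**Figure D1:**
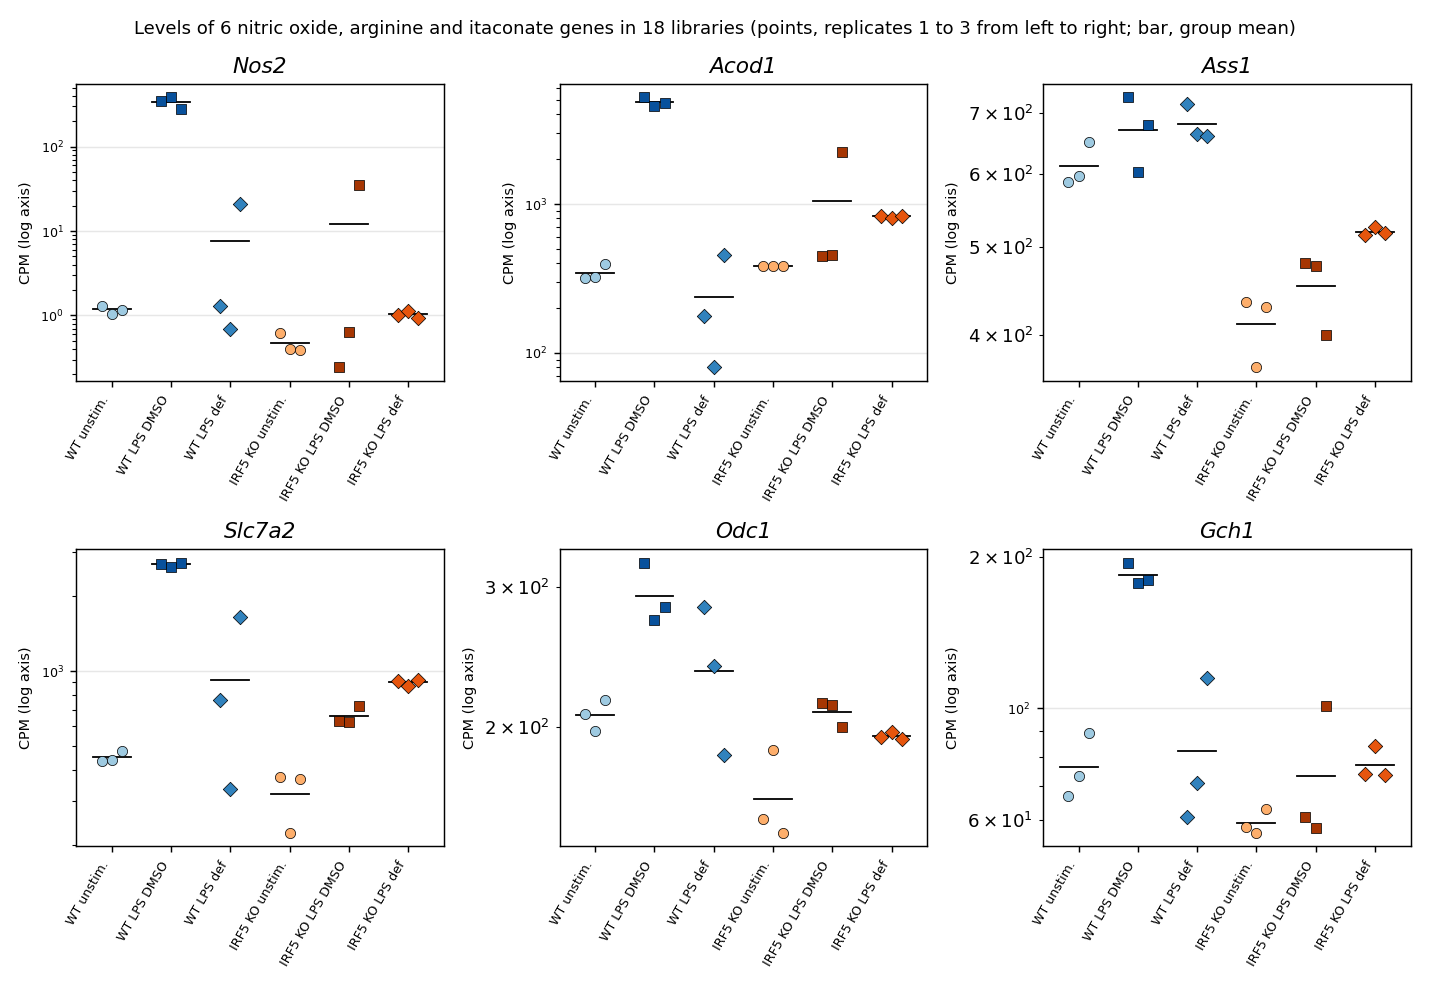
Levels of the 6 genes in CPM (log axes) in each of the 18 libraries, by group, with points for libraries and bars for group means of 3 libraries. WT LPS DMSO stands above the other groups for Nos2, Acod1, Slc7a2 and Gch1, and all 9 IRF5 KO libraries stand below all 9 WT libraries for Ass1.

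Nos2 (ENSMUSG00000020826, mm10 chr11:78920787-78960254, + strand) was almost silent before stimulation, at 1.31, 1.05 and 1.18 CPM in the 3 WT unstimulated libraries, and reached 350.5, 386 and 281 CPM in WT LPS DMSO. The lowest stimulated library was thus far above the highest unstimulated one, and the groups did not overlap. LPS gave a log2 fold change of 8.17 (SE 1.62, adjusted p = 0.000838, edgeR), the widest change among the 6 genes in this comparison. With defactinib the WT libraries were at 1.30, 0.698 and 20.9 CPM. Replicates 1 and 2 lay within or below the range of the unstimulated libraries up to 1.31 CPM, and replicate 3 lay above it but far under every DMSO library. Between defactinib and DMSO the log2 fold change was -5.48 (SE 1.42, adjusted p = 0.00422), and -8.38 without replicate 3 of WT LPS defactinib (adjusted p = 0.000808).

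Gch1 (ENSMUSG00000037580, chr14:47153895-47189413, - strand) makes the first enzyme of the cofactor pathway and was already expressed before LPS, at 67.0, 73.4 and 89.2 CPM. After LPS it stood at 195, 178 and 180.0 CPM, a log2 fold change of 1.27 (SE 0.22, adjusted p = 0.000255). The 2 groups did not overlap. The defactinib-treated libraries were at 60.7, 71.0 and 115 CPM, all below the DMSO libraries, and the log2 fold change against DMSO was -1.16 (SE 0.22, adjusted p = 0.000395). Over the 18 fits without 1 library it ranged from -1.46 to -0.95, the latter, without WT LPS defactinib replicate 1, inside the 2-fold limit. With scaling by library size alone, both changes of Gch1 were inside that limit, 0.89 with LPS and -0.97 with defactinib.

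Slc7a2 (ENSMUSG00000031596, chr8:40862396-40922308, + strand), the inducible arginine transporter, rose from 434, 438 and 478 CPM to 2688, 2628 and 2728 CPM in WT cells. The log2 fold change was 2.58 (SE 0.38, adjusted p = 6.6e-05), and the coefficient of variation of the 3 stimulated libraries was 1.86%. Defactinib left the level spread widely, at 768, 337 and 1645 CPM. These libraries were all below those with DMSO (log2 fold change -1.55, SE 0.37, adjusted p = 0.00239), but replicates 1 and 3 were above every unstimulated library and replicate 2 below them all. Without replicate 3 the log2 fold change was -2.27.

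Ass1 (ENSMUSG00000076441, chr2:31470207-31520672, + strand), the citrulline recycling enzyme, was abundant in all groups and was not called in the LPS or defactinib comparisons. It was at 589, 598 and 650.5 CPM before LPS, at 729, 604 and 679 CPM after LPS and at 716.5, 665 and 661 CPM with defactinib. The LPS DMSO libraries overlapped both other WT groups, the defactinib libraries lay just above the unstimulated ones, and the log2 fold change with LPS was 0.13 (SE 0.10, adjusted p = 0.304). It was -0.25 when only library size was used for scaling, a setting that shifted the median of all genes by -0.38.

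Acod1 (ENSMUSG00000022126, chr14:103046977-103056573, + strand) was the most abundant of the 6 genes per kilobase in WT LPS DMSO, with a mean of 1849 FPKM ± 126 (SD, n = 3) against 293.5 FPKM ± 5.46 for Slc7a2, 278 FPKM ± 26.2 for Ass1, 115 FPKM ± 10.3 for Odc1, 76.8 FPKM ± 12.1 for Nos2 and 66.4 FPKM ± 3.37 for Gch1. Its level was 319, 324.5 and 394 CPM in WT unstimulated and 5216, 4577 and 4755 CPM in WT LPS DMSO. This was a log2 fold change of 3.81 (SE 0.63, adjusted p = 0.000171), a 14.01-fold difference. In the 3 defactinib libraries the level was 177, 80.0 and 452 CPM. Replicates 1 and 2 were below every unstimulated library, and replicate 3 was above them all. Against DMSO the log2 fold change was -4.36 (SE 0.64, adjusted p = 5.22e-05), or -5.23 without replicate 3 of WT LPS defactinib.

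Odc1 (ENSMUSG00000011179, chr12:17544873-17551502, + strand), the entry enzyme of polyamine synthesis, was at 208, 198 and 216 CPM before LPS and at 322, 273 and 283 CPM after LPS. These groups did not overlap, and the log2 fold change of 0.50 (SE 0.13, adjusted p = 0.00526) was under the 2-fold limit. With defactinib the libraries were at 283.5, 239 and 184 CPM, overlapping both other WT groups. The log2 fold change against DMSO was -0.31 (SE 0.13, adjusted p = 0.0476). No exon of the 6 genes overlaps another gene on its own strand, and the counting used strand.

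For defactinib against DMSO after LPS in WT cells, the calls were thus the same 4 genes, all lower, against 29.1% of all tested genes called. Both comparisons use the WT LPS DMSO libraries, so that their values are set side by side here and not correlated. Compared directly with unstimulated WT cells, the libraries with LPS and defactinib gave 1 call among the 6, Slc7a2, higher with a log2 fold change of 1.03 (SE 0.36, adjusted p = 0.0276), against 24.9% of all tested genes. The call did not stand in all settings. Slc7a2 was at 0.30 without replicate 3 of WT LPS defactinib (adjusted p = 0.322) and lost its call without any 1 of the WT unstimulated libraries. In the same comparison Acod1 was at -0.55 (SE 0.56, adjusted p = 0.428) and at -1.43 without replicate 3 of WT LPS defactinib (adjusted p = 0.0445), and Nos2 was at 2.69 (SE 1.36, adjusted p = 0.107) and at -0.22 without it.

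**Figure D2:**
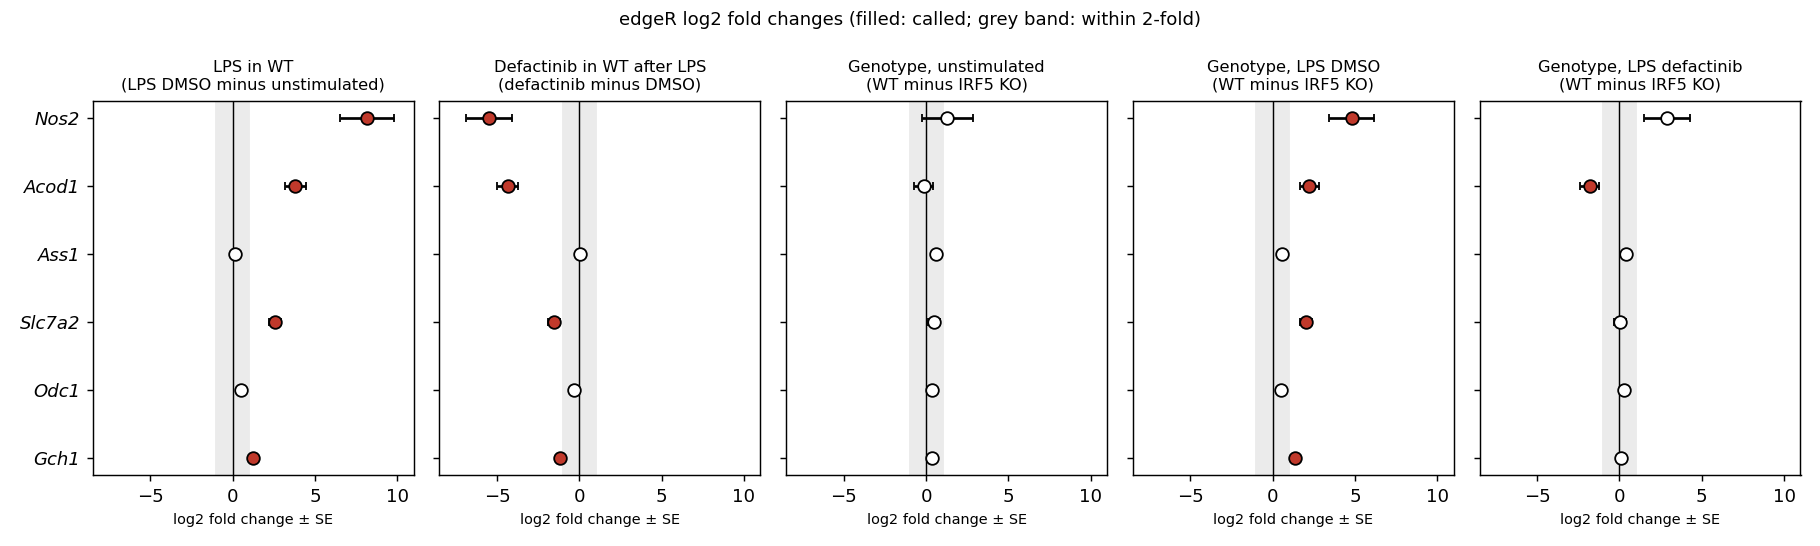
Log2 fold changes of the 6 genes with their standard errors in 5 comparisons of 3 against 3 libraries, where filled points were called and the grey band marks changes within 2-fold. Nos2, Acod1, Slc7a2 and Gch1 lie to the right of the band for LPS in WT cells and to its left for defactinib, and none of the 6 was called between the unstimulated genotypes.

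The next question was how the genotypes differed before LPS. Between unstimulated WT and IRF5 KO libraries none of the 6 genes was called by edgeR, against 7.31% of all tested genes. At an unadjusted p below 0.05 the number was 2 (Ass1 and Odc1), and DESeq2 called 0. Ass1 was lower in IRF5 KO, at 435, 369 and 429 CPM, and the genotypes did not overlap, but the log2 fold change of 0.58 (SE 0.10, adjusted p = 0.00064) was under the 2-fold limit. Slc7a2 (374, 224 and 367 CPM), Odc1 (153, 187 and 147 CPM) and Gch1 (58.1, 56.5 and 63.1 CPM) were also below every WT library, without a call. Acod1 (382, 386 and 384 CPM) overlapped with WT. Nos2 stood at 0.623, 0.404 and 0.393 CPM in IRF5 KO, below the 3 WT libraries, and the log2 fold change of 1.29 had a standard error of 1.56 (adjusted p = 0.697). In a fit of only these 2 groups the same difference was called, at 1.29 with a standard error of 0.26 (adjusted p = 0.00189).

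Markers of other cells were read beside the genotype comparisons. Summed over 5 neutrophil markers (S100a8, S100a9, Ly6g, Camp, Ngp) the level was 51.8 to 71.4 CPM in WT and 63.2 to 74.3 CPM in IRF5 KO unstimulated libraries, ranges that overlap. Their defining gene Ly6g was at a mean of 0.0869 CPM in WT and 0.368 CPM in IRF5 KO unstimulated. The 4 mast cell and basophil markers (Mcpt8, Cpa3, Ms4a2, Fcer1a) summed to at most 1.53 CPM in any library, Fcer1a being at 0 in all libraries of 3 of the 6 groups, and the 3 lymphocyte markers (Cd3e, Cd79a, Ncr1) to at most 0.848 CPM, Ncr1 being at 0 in all libraries of 5 groups. The 4 dendritic cell markers (Flt3, Zbtb46, Ccr7, Cd209a) summed to 101 to 109 CPM in WT and 89.8 to 121 CPM in IRF5 KO unstimulated. After LPS with DMSO this sum was 365 to 476.5 CPM in WT and 153 to 236 CPM in IRF5 KO, and after LPS with defactinib it was 36.6 to 76.4 CPM in WT and 224 to 239 CPM in IRF5 KO. The genotypes thus overlapped in this sum before LPS, were separate with WT higher in LPS DMSO and were separate with IRF5 KO higher in LPS defactinib, the directions in which Acod1 was called. The largest part of both differences was in Ccr7 (mean 311 CPM in WT and 114 in IRF5 KO LPS DMSO, 23.2 and 156 in LPS defactinib), while Flt3 in LPS defactinib was higher in WT (2.16 against 1.04 CPM) and Cd209a was at 2.87 and 3.69 CPM. The neutrophil sum was 111 to 214 and 138 to 160.4 CPM in LPS DMSO and 110 to 146 and 137 to 161 CPM in LPS defactinib, overlapping between genotypes in both. Ly6g was again at a higher mean in IRF5 KO, 1.03 against 0.309 CPM in LPS DMSO and 0.683 against 0.322 CPM in LPS defactinib. Camp and Ngp were not higher in IRF5 KO in either. The macrophage markers did not all move one way between unstimulated genotypes. Mean levels in WT and IRF5 KO were 73.3 and 302 CPM for Adgre1, 294 and 489 for Itgam, 857 and 1063 for Csf1r and 8257 and 10730 for Lyz2. Those of Cd68 were 268 and 262 CPM and those of Mertk 66.4 and 47 CPM. Their sum was 9684 to 10010 CPM in WT and 10150 to 14490 CPM in IRF5 KO unstimulated. In LPS DMSO it was 9304 to 9821 and 9497 to 12150 CPM. In LPS defactinib it was 10560 to 15020 and 17780 to 18730 CPM. Lyz2 made up most of it, and Mertk was lower in IRF5 KO LPS defactinib (27.6 against 47.9 CPM). The sum was thus higher in IRF5 KO without overlap before LPS and in LPS defactinib. The part of such cells in the genotype results was not tested. In bulk RNA, fewer cells expressing a gene and less of its RNA per cell cannot be told apart.

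The question for LPS DMSO was how much of the WT response was present in IRF5 KO cells. Between WT and IRF5 KO after LPS with DMSO, 4 of the 6 genes were called, against 25.8% of all tested genes. The libraries of the 2 genotypes did not overlap for any of the 6. How many of all genes were separate in this way was not counted, here or between the unstimulated genotypes. Nos2, Acod1, Slc7a2 and Gch1 were higher in WT. The calls were 4 without replicate 3 of IRF5 KO LPS DMSO and 1, Slc7a2, with its replicates 1 and 2 left out, a fit in which the remaining library is assumed to vary like those of the other groups.

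Nos2 was at 0.242, 0.636 and 35.0 CPM in IRF5 KO LPS DMSO, the lowest of these resting on 10 read pairs. Replicates 1 and 2 were at the level of unstimulated IRF5 KO cells, and replicate 3 was far above them but also far under the WT libraries. The log2 fold change, WT minus IRF5 KO, was 4.81 (SE 1.37, adjusted p = 0.00882), 9.61 without replicate 3 and 3.26 with replicates 1 and 2 left out (adjusted p = 0.0967). Acod1 showed the same split, at 448, 456 and 2230 CPM. Its log2 fold change was 2.21 (SE 0.58, adjusted p = 0.00567), 3.42 without replicate 3 and 1.10 with replicates 1 and 2 left out (adjusted p = 0.234). Gch1, at 60.9, 57.8 and 101.0 CPM, gave 1.33 (SE 0.22, adjusted p = 0.000174), and 0.85 with replicates 1 and 2 left out. For all 3 of these genes replicate 3 was the library nearest to WT.

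Slc7a2 was less divided, at 630, 622 and 723 CPM, all far under the WT libraries (log2 fold change 2.03, SE 0.37, adjusted p = 0.000447). It stayed called without replicate 3 (2.10) and with replicates 1 and 2 left out (1.87, adjusted p = 0.049). Ass1 (480.1, 477 and 400.4 CPM) and Odc1 (214, 213 and 200 CPM) were lower in IRF5 KO by log2 fold changes of 0.57 (SE 0.10, adjusted p = 0.000198) and 0.49 (SE 0.13, adjusted p = 0.00554), under the 2-fold limit.

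Within IRF5 KO cells, LPS with DMSO against no stimulation gave 2 calls, both higher, against 13.3% of all tested genes: Nos2 with a log2 fold change of 4.65 (SE 1.5, adjusted p = 0.0268) and Slc7a2 with 1.03 (SE 0.36, adjusted p = 0.0375). Without replicate 3 of IRF5 KO LPS DMSO edgeR called none of the 6 genes, 2 of them being at an unadjusted p below 0.05, and Nos2 was at -0.16 (adjusted p = 0.949) and Slc7a2 at 0.96 (adjusted p = 0.0804). Nos2 also lost its call without any 1 of the 3 unstimulated IRF5 KO libraries (adjusted p of up to 0.0840), and Slc7a2 without any 1 of the 6 libraries compared (up to 0.134). With replicates 1 and 2 left out 2 genes were called, Nos2 (6.19) and Acod1 (2.55). Acod1 gave 1.44 with all libraries (SE 0.57, adjusted p = 0.0579) and 0.23 without replicate 3. The log2 fold change of Odc1 was 0.36 (SE 0.13, adjusted p = 0.0369), under the 2-fold limit, and those of Gch1 (0.31, adjusted p = 0.276) and Ass1 (0.14, adjusted p = 0.261) were not called. Ass1 was at -0.10 with scaling by library size alone, which shifted the median of all genes to -0.23, and at -0.02 with replicates 1 and 2 of IRF5 KO LPS DMSO left out.

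Whether the LPS response differed between genotypes was tested by the interaction of genotype and LPS. With all libraries edgeR called none of the 6 genes, against 9.83% of all tested genes. At an unadjusted p below 0.05 the number was 3 (Acod1, Slc7a2 and Gch1), and DESeq2 called 2. The estimates, WT minus IRF5 KO, were positive for Nos2 (3.52, adjusted p = 0.236), Acod1 (2.36, adjusted p = 0.0552), Slc7a2 (1.54, adjusted p = 0.0511) and Gch1 (0.96, adjusted p = 0.0436), the last of these under the 2-fold limit. Without replicate 3 of IRF5 KO LPS DMSO 4 genes were called, Nos2 (8.32), Acod1 (3.57), Slc7a2 (1.61) and Gch1 (1.26), and with replicates 1 and 2 left out the call count was 0, with Nos2 at 1.97 and Acod1 at 1.25 (adjusted p = 0.583 and 0.377). The estimate therefore depends on which IRF5 KO LPS DMSO libraries are taken to stand for the group. The share of 9.83% of all genes is that of the fit of all libraries and does not belong to the fits without some of them.

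**Figure D3:**
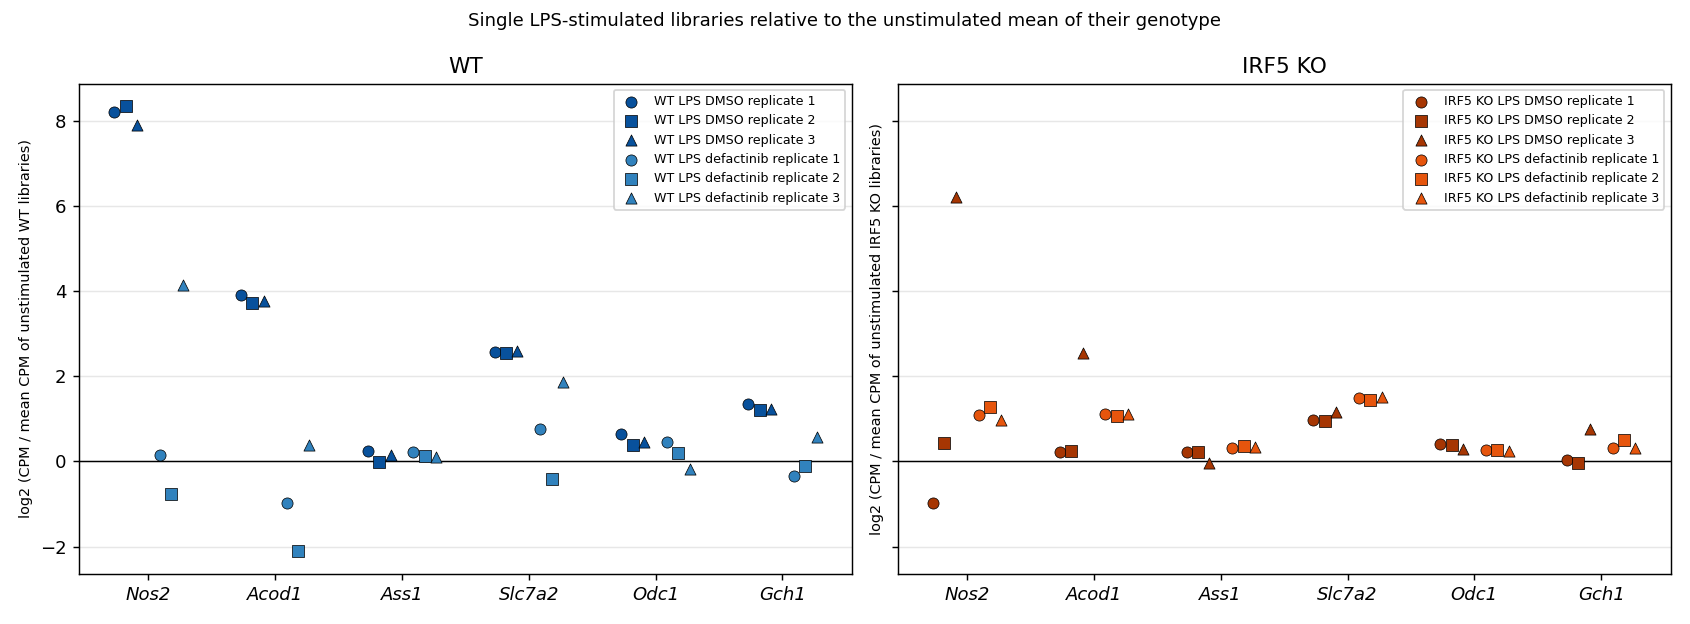
Log2 ratio of each LPS-stimulated library to the mean of the 3 unstimulated libraries of its own genotype, for WT on the left and IRF5 KO on the right, with a marker shape for each replicate. In IRF5 KO LPS DMSO replicate 3 stands above replicates 1 and 2 for Nos2, Acod1 and Gch1, and in WT LPS defactinib replicate 3 stands above the others for Nos2, Acod1, Slc7a2 and Gch1.

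With defactinib the IRF5 KO libraries were close to each other. Nos2 was at 1.01, 1.14 and 0.930 CPM, Acod1 at 836, 811 and 833 CPM and Slc7a2 at 911, 874 and 920.0 CPM. Gch1 was at 73.9, 84.2 and 73.7 CPM, Ass1 at 515, 525.0 and 518 CPM and Odc1 at 194.5, 197 and 193 CPM. Against unstimulated IRF5 KO cells 1 of the 6 genes was called, against 24% of all tested genes: Slc7a2, higher with a log2 fold change of 1.49 (SE 0.37, adjusted p = 0.00362). Acod1 was 1.11 higher without a call (SE 0.57, adjusted p = 0.112), although its 3 libraries were above all unstimulated ones, and in a fit of only these 2 groups it was called (SE 0.05, adjusted p = 1.47e-09). Ass1 (log2 fold change 0.34, SE 0.10, adjusted p = 0.00822) was under the 2-fold limit and was at -0.03 with scaling by library size alone, which shifted the median of all genes by -0.36. Nos2 had a log2 fold change of 1.10 with a standard error of 1.6, which was 0.28 in the fit of only these 2 groups, where it was called (adjusted p = 0.00338).

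Between defactinib and DMSO in LPS-stimulated IRF5 KO cells none of the 6 genes was called by edgeR, against 0.919% of all tested genes. At an unadjusted p below 0.05 the number was 1 (Nos2), and DESeq2 called 0. The number called was also 0 without replicate 3 of IRF5 KO LPS DMSO, and 1, Nos2, with its replicates 1 and 2 left out. Nos2 had a log2 fold change of -3.55 (SE 1.40, adjusted p = 0.147), 1.25 without replicate 3 of IRF5 KO LPS DMSO and -5.10 with replicates 1 and 2 left out (adjusted p = 0.00525). For Acod1 these values were -0.34 (SE 0.56, adjusted p = 0.757), 0.87 and -1.45 (adjusted p = 0.0644). Slc7a2 was higher in each defactinib library than in each DMSO library, with a log2 fold change of 0.45 (SE 0.36, adjusted p = 0.476). So was Ass1 (0.20, SE 0.10, adjusted p = 0.225), whereas Odc1 was lower in each defactinib library (-0.10, SE 0.13, adjusted p = 0.672).

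The interaction of genotype and defactinib, the defactinib change in WT minus that in IRF5 KO, was called for 3 of the 6 genes, against 22.8% of all tested genes. It was -4.02 for Acod1 (SE 0.82, adjusted p = 0.00147), -2.0 for Slc7a2 (SE 0.51, adjusted p = 0.00679) and -1.24 for Gch1 (SE 0.31, adjusted p = 0.00536). In IRF5 KO the change between defactinib and DMSO was -0.34 for Acod1, 0.45 for Slc7a2 and 0.08 for Gch1 (-0.40 for Gch1 with replicates 1 and 2 of IRF5 KO LPS DMSO left out), none of them called, against called falls of all 3 in WT. For Acod1 the defactinib libraries were below the DMSO libraries in 3 of 3 WT cases, and in IRF5 KO they overlapped. With replicates 1 and 2 of IRF5 KO LPS DMSO left out the call was Acod1 alone (-2.90, adjusted p = 0.0197), and without replicate 3 the calls were those 3 and Nos2 (-6.73, adjusted p = 0.00618). Nos2 with all libraries was at -1.93 (SE 1.82, adjusted p = 0.431), and it was called at -4.82 without replicate 3 of WT LPS defactinib (adjusted p = 0.0477).

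After LPS with defactinib, 1 of the 6 genes was called between genotypes, against 17.3% of all tested genes. Acod1 was higher in IRF5 KO (log2 fold change, WT minus IRF5 KO, -1.81, SE 0.58, adjusted p = 0.0234), the opposite direction to that after LPS with DMSO, where it was higher in WT. It lost its call in 4 of the 18 fits without 1 library, without replicate 1 or 2 of WT LPS defactinib or replicate 1 or 3 of IRF5 KO LPS defactinib, with an adjusted p of up to 0.0798. Over the 18 fits the log2 fold change ranged from -2.68, without replicate 3 of WT LPS defactinib, to -1.38, without its replicate 2. Slc7a2 overlapped between genotypes, with a log2 fold change near 0 (0.02, SE 0.36, adjusted p = 0.966). That value rests on replicate 3 of WT LPS defactinib, without which it was -0.70 (adjusted p = 0.0456) and the other 2 WT libraries were below all 3 IRF5 KO libraries. Nos2 was at 2.88 (SE 1.39, adjusted p = 0.12), a value that replicate 3 of WT LPS defactinib decided, since it was -0.02 without that library (adjusted p = 0.994). Ass1 was higher in WT (0.39, SE 0.10, adjusted p = 0.00486), under the 2-fold limit.

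Across the 18 libraries the log2 CPM of Nos2 correlated with that of Gch1 at a Pearson r of 0.961, with Slc7a2 at 0.858 and with Acod1 at 0.835. Slc7a2 correlated with Gch1 at 0.873, and Acod1 with Ass1 at 0.08, the lowest of the 15 pairs. These points share groups and libraries, and the values are a description. Among the other genes whose log2 CPM averaged 3 or more, those most alike to Nos2 were Ifi204 (r = 0.982), Rsad2 (0.981) and Acsl1 (0.980), those most alike to Acod1 were Ddhd1 (0.975), Rsbn1 (0.973) and Ifi207 (0.973), and those most alike to Slc7a2 were Casp4 (0.967), Sptan1 (0.967) and Arid5b (0.961). Rsad2 and the Ifi200 family genes Ifi204 and Ifi207 are interferon-inducible.

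The genes around these 6 were described from a list. Of 51 further genes of arginine, polyamine, tetrahydrobiopterin and itaconate metabolism, 50 were in the table and 41 were tested. With LPS in WT cells 5 of the 41 were called, 4 higher and 1 lower, where 21.3% of all genes were, and the median log2 fold change of the list was 0.14. Of those called, 4 belong to polyamine metabolism, of which 10 genes were tested. Sat1, which acetylates polyamines for export, was at 212, 199 and 194 CPM before and 464.5, 466 and 427.5 CPM after LPS (log2 fold change 1.17, SE 0.09, adjusted p = 1.41e-07). Smox, spermine oxidase, was at 47.7, 50.4 and 58.3 CPM before and 107, 105.5 and 119 CPM after LPS (1.08, SE 0.12, adjusted p = 2.45e-06). Both groups of libraries were separate for these genes. Azin2, an antizyme inhibitor that keeps ornithine decarboxylase active, rose at a low level, from a mean of 0.401 CPM ± 0.171 to 1.52 CPM ± 0.175 (SD, n = 3, log2 fold change 1.91, adjusted p = 0.00166). Paox, polyamine oxidase, was lower after LPS (-1.23, adjusted p = 0.000283). The other call was the arginine transporter Slc7a3 (1.85, adjusted p = 0.0364, at most 0.614 CPM). None of the 13 itaconate and citrate genes was called by edgeR or DESeq2 in this comparison, with 4 at an unadjusted p below 0.05, and none of the 4 tetrahydrobiopterin genes tested was called by either tool or passed that unadjusted level (0 of 4).

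Defactinib in LPS-stimulated WT cells gave 1 call higher and 1 lower among the 41, where 29.1% of all genes were called. Aldh18a1, which makes the precursor of proline and ornithine from glutamate, was at 27.1, 24.8 and 28.4 CPM with DMSO and 66.8, 61.3 and 68.8 CPM with defactinib (log2 fold change 1.29, SE 0.14, adjusted p = 2.07e-06). Amd1, the S-adenosylmethionine decarboxylase of polyamine synthesis, was at 23.8, 24.1 and 22.8 CPM with DMSO and at 9.44, 8.30 and 9.61 CPM with defactinib (-1.37, SE 0.29, adjusted p = 0.00108). In IRF5 KO cells, where 0.919% of all genes were called for defactinib, none of the 41 was called by edgeR or DESeq2, and 12 had an unadjusted p below 0.05. That share is of calls and is not a background for these 12. With replicates 1 and 2 of IRF5 KO LPS DMSO left out 2 were called, both lower, Slc7a1 (-1.40) and Amd1 (-1.15), and without replicate 3 the number was 0.

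Between genotypes after LPS with DMSO 4 of the 41 were called higher in WT and 2 lower, where 25.8% of all genes were called. Sat1 (1.17, adjusted p = 2.26e-07), Slc3a2 (1.0, adjusted p = 7.71e-06), the shared heavy chain of several amino acid transporters, Gatm (1.21, adjusted p = 5.51e-05), which starts creatine synthesis from arginine, and Gchfr (1.80, adjusted p = 0.0246), the feedback regulator of GTP cyclohydrolase, were higher in WT. Gchfr was at most 0.487 CPM in these libraries. Aldh18a1 (-1.11, adjusted p = 1.24e-05) and spermidine synthase, Srm (-1.0, adjusted p = 0.00024), were higher in IRF5 KO. Srm (-1.0042) and Slc3a2 (1.0029) only just passed the 2-fold limit, and DESeq2 called 5 of the 41. The 6 calls were 8 without replicate 3 of IRF5 KO LPS DMSO and 2 with its replicates 1 and 2 left out. After LPS with defactinib 2 genes were called, both higher in WT, where 17.3% of all genes were called. Slc13a3, a plasma membrane carrier of dicarboxylates, was at 6.23, 6.67 and 6.37 CPM in WT and 1.55, 1.48 and 1.89 CPM in IRF5 KO (1.97, SE 0.20, adjusted p = 2.01e-06), and Gatm was at 71.9, 43.5 and 45.8 CPM in WT and 18.5, 17.7 and 20.8 CPM in IRF5 KO (1.5, SE 0.18, adjusted p = 9.07e-06). In unstimulated cells, where 7.31% of all genes were called, none of the 41 was called by edgeR, with 11 at an unadjusted p below 0.05, and DESeq2 called 1.

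Under LPS with defactinib against no stimulation 4 of the 41 were called in WT and 3 in IRF5 KO, where 24.9% and 24% of all genes were. Amd1 was lower in WT (-1.83, adjusted p = 0.000176) and in IRF5 KO (-1.33, adjusted p = 0.00158). In WT the other calls were Slc7a3 (1.70, adjusted p = 0.0447), Azin2 (1.5, adjusted p = 0.00773) and Prodh, proline dehydrogenase (1.14, adjusted p = 0.00188), all higher. In IRF5 KO they were Slc7a3 (2.30, adjusted p = 0.0139), higher, and the constitutive arginine transporter Slc7a1, lower, at 65.4, 69.3 and 65.5 CPM unstimulated and at 26.0, 30.8 and 26.7 CPM with LPS and defactinib (-1.26, SE 0.25, adjusted p = 0.000771). With LPS and DMSO in IRF5 KO cells 2 of the 41 were called, where 13.3% of all genes were, Slc7a3 (2.54, adjusted p = 0.0145) and Amd1 (-1.02, adjusted p = 0.0148), the latter at 10.6, 10.9 and 31.1 CPM in replicates 1, 2 and 3 and at 33.7 to 37.5 CPM unstimulated, so that replicate 3 again lay apart. These 2 calls were 3 without that library (Slc7a1 was added) and 0 with replicates 1 and 2 left out. The interaction with LPS was called for Aldh18a1 (-1.02, adjusted p = 0.00272). That 1 call was lost with replicates 1 and 2 of IRF5 KO LPS DMSO left out, and without replicate 3 there were 3, Aldh18a1, Slc7a1 and Amd1. For defactinib they were called for Aldh18a1 (1.58, adjusted p = 1.68e-05), Slc13a3 (1.55, adjusted p = 0.000493), Srm (1.09, adjusted p = 0.00262), Sat1 (-1.30, adjusted p = 2.62e-06) and Slc3a2 (-1.17, adjusted p = 6.4e-05). These 5 of 41 calls, where 22.8% of all genes were called, were 9 without replicate 3 of IRF5 KO LPS DMSO, all 5 among them, and 4 with its replicates 1 and 2 left out, Aldh18a1, Slc13a3, Sat1 and Smox.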

How the data were processed

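RNA-seq of 18 BMDM libraries was used, in 6 groups of 3 taken from the labels. The deposited table holds raw counts of read pairs per Ensembl gene, not normalized. The authors mapped reads to mm10 with STAR and, per the header, counted uniquely mapped pairs over exons with featureCounts 1.6.3, reverse stranded. Counts of multicopy genes are limited by this filter. Of 50600 gene IDs, 50376 had a symbol in GENCODE.

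The edgeR 4.0.16 (R 4.3.3) quasi-likelihood F test was fitted to all 18 libraries with 1 mean per group, TMM scaling, filterByExpr and a robust fit, two-sided, with Benjamini-Hochberg adjustment over 15663 genes in each of 11 comparisons. A call needed an adjusted p below 0.05 and a change of over 1 on the log2 scale. Standard errors are the size of the log2 fold change over the square root of F. CPM and FPKM were computed from TMM scaled counts and the deposited exon lengths, and log2 CPM used a prior count of 2. Means ± SD are over 3 libraries. The test was also run on simulated counts, the outcome of which is not given here.

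The alternatives were DESeq2 1.42.0, which the authors used, other scalings and filters, a replicate block, only the groups compared, no fold limit, and leaving out each library or replicates 1 and 2 of IRF5 KO LPS DMSO. Named were the 6 genes, for each comparison up to 4 called listed genes with the largest rise and up to 4 with the largest fall, the 3 genes most alike by Pearson r to each of Nos2, Acod1 and Slc7a2, and marker genes. The genes, lists and tests were chosen with earlier results of these data known. Of the 8 genes the rule lists, 2 are not reported here, nor are 2 genes of the pathway list and 1 marker, and counts leave them out.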

Additional observations from a re-analysis of the deposited data

Results flagged for a closer look

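The effect of defactinib differed between genotypes for 3 of the 6 genes by the test of the interaction in edgeR, with 3 libraries in each group. The differences, WT minus IRF5 KO, were -4.02 on the log2 scale for Acod1 (adjusted p = 0.00147), -2.0 for Slc7a2 (adjusted p = 0.00679) and -1.24 for Gch1 (adjusted p = 0.00536). With replicates 1 and 2 of IRF5 KO LPS DMSO left out, these values were -2.90, -1.84 and -0.74, of which that of Acod1 was called. Groups of 3 libraries were not tested for single outlying libraries.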

How the results depend on the processing

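The log2 fold changes of 49 combinations of gene and comparison were recomputed under 27 settings, and 11 kept their direction and call under all of them. Of 1323 values, 1218 kept both, 48 gained a call, 42 lost one and 15 reversed. The reversed values were Ass1 with scaling by library size alone for LPS in WT (-0.25), LPS in IRF5 KO (-0.1041) and LPS with defactinib in IRF5 KO (-0.0254), Gch1 with the same scaling for defactinib in IRF5 KO (-0.0769), Ass1 for LPS in IRF5 KO (-0.0219) and Gch1 for defactinib in IRF5 KO (-0.40) with replicates 1 and 2 of IRF5 KO LPS DMSO left out, Gch1 for the latter without either of those 2 (-0.0539 and -0.0836), Slc7a2 for the genotypes after LPS with defactinib with the replicate block (-0.1078) and without WT LPS defactinib replicate 3 (-0.70), Nos2 without WT LPS defactinib replicate 3 for the genotypes after LPS with defactinib (-0.0236) and for LPS with defactinib in WT (-0.22), and, in IRF5 KO without LPS DMSO replicate 3, Nos2 for LPS (-0.16) and defactinib (1.25) and Acod1 for defactinib (0.87). Leaving out each library in turn, Nos2 ranged from -0.16 to 5.23 for LPS in IRF5 KO, from -4.14 to 1.25 for defactinib in IRF5 KO, from -0.0236 to 3.44 for the genotypes after LPS with defactinib and from -0.22 to 3.24 for LPS with defactinib in WT, Acod1 from -0.72 to 0.87 and Gch1 from -0.0836 to 0.38 for defactinib in IRF5 KO, and Slc7a2 from -0.70 to 0.43 for the genotypes after LPS with defactinib. Library size alone shifted the median log2 fold change of all genes to -0.38 for LPS in WT, 0.29 for defactinib in WT and 0.45 for the interaction with defactinib, and moved 17 of 36 group levels by more than their SD, where DESeq2 size factors moved 1.

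Of the 6 genes, the number called for LPS in IRF5 KO, 2, was 1 by library size alone and with the replicate block, 0 without a filter and in a fit of only the groups compared, and 3 by DESeq2 and with a filter of 5 CPM in 3 libraries (Acod1 was added) and without a fold limit (Odc1 was added). For defactinib in IRF5 KO it was 0, and 1 with replicates 1 and 2 of IRF5 KO LPS DMSO left out. That last setting gave 1 in place of 4 for the genotypes after LPS, 1 in place of 3 for the interaction with defactinib and 2 in place of 1 for the genotypes after LPS with defactinib. A fit of only the groups compared gave 3 in place of 4 for the genotypes after LPS (Nos2 was lost) and for defactinib in WT (Slc7a2 was lost), and library size alone gave 3 in place of 4 for LPS and for defactinib in WT and 2 in place of 3 for the interaction with defactinib (Gch1 was lost in all 3). For the genotypes after LPS with defactinib the count was also 2 without a fold limit, 0 without a filter and 0 in a fit of only the groups compared. For the unstimulated genotypes it was 0, and 1 without a fold limit and in a fit of only the groups compared. For LPS with defactinib in WT it was 1, and 0 by library size alone, without a filter, with the replicate block and in a fit of only the groups compared. For LPS with defactinib in IRF5 KO it was 1, with 2 without a fold limit and 3 in a fit of only the groups compared. For the interaction with LPS it was 0, with 1 without a fold limit, 1 by DESeq2 size factors, 2 with a filter of 5 CPM in 3 libraries, 3 with the replicate block, 2 in a fit of only the groups compared and 2 by DESeq2. Leaving out 1 library gave 0 to 3 calls for LPS in IRF5 KO, 0 to 2 for the genotypes after LPS with defactinib, 0 to 2 for LPS with defactinib in WT, 1 to 2 for LPS with defactinib in IRF5 KO and 0 to 4 for the interaction with LPS. When replicate 3 of IRF5 KO LPS DMSO was left out, the count rose to 2 for the genotypes after LPS with defactinib and for LPS with defactinib in either genotype, and 4 for the interaction with LPS. That last count was 2 without WT LPS defactinib replicate 2 or 3 and 1 without replicate 3 of WT or 2 of IRF5 KO unstimulated. The causes were not tested.

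Across groups, the deviations of same-numbered libraries correlated at a median of 0.005 over 45 pairs (-0.105 to 0.278), above 0.1 in 4. With so few libraries in a group, this cannot tell whether same-numbered libraries shared a mouse or a preparation. With the replicate block 43 of the 49 combinations kept direction and call, 3 gained a call, 2 lost one and 1, given above, reversed. Nos2 was at low counts in several groups, down to 10 read pairs in a library, which limits its precision there.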
